A study of Homo sapiens with 8 samples.

Results

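The genes described here encode the classical guidance cues and their receptors, which are semaphorins, plexins, ephrins, Eph receptors, Slits, Robos and UNC5 receptors. They were chosen by symbol, as protein-coding genes whose name starts with SEMA, PLXN, EPHA, EPHB, EFNA, EFNB, SLIT, ROBO or UNC5 followed by a number or letter, without the SLITRK genes. The rule found 65 of the 38010 Ensembl gene IDs in the deposited table of estimated counts. Of these, 62 are guidance ligands or receptors, 31 of each kind. The other 3 are UNC50, which shares only the spelling, UNC5CL, a cytoplasmic relative of the UNC5 receptors, and the EFNA4-EFNA3 readthrough gene.

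Expression was measured by bulk RNA-seq in confluent cultures of Ea.hy926, a human hybrid line of endothelial cells from umbilical vein and the lung carcinoma line A549. A Rho0 derivative that is deficient in oxidative phosphorylation was compared with the parental line, with 4 biological replicates of each. Both were harvested at confluence, and the labels give no other treatment. Each group comes from 1 line, so the loss of respiration and any other way in which these lines differ cannot be told apart. In bulk RNA, a smaller number of expressing cells and a lower amount of RNA per cell cannot be told apart either.

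Guidance cues were named for steering growing axons, and the same ligand and receptor pairs act in blood vessels. Secreted class 3 semaphorins signal through neuropilins and plexins, membrane semaphorins bind plexins directly, and plexins act on small GTPases to collapse or redirect the leading edge of the cell. Ephrins are membrane-bound ligands of the Eph receptor tyrosine kinases and signal in both cells at a contact, and ephrin-B2 and EPHB4 are the classical arterial and venous endothelial pair. Slits are large secreted ligands of Robo receptors, of which ROBO4 is the endothelial member, and UNC5 receptors bind netrins.

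Libraries held 11721708 to 37203507 estimated counts in Rho0 and 23366190 to 28599386 in the parental line. The 13 mRNAs of mitochondrial DNA made up 0.00296% to 0.149% of the Rho0 libraries and 16% to 21.4% of the parental libraries, with the highest Rho0 share in replicate 2. Endothelial markers were present in both lines. PECAM1 averaged 2118 ± 67.2 CPM in Rho0 and 1086 ± 41.4 CPM in the parental line, and CDH5 averaged 1034 ± 32.7 CPM in Rho0 and 1718 ± 92.5 CPM in the parental line (SD, n = 4 each), where CPM is the library-size-scaled count after TMM normalization. EMCN, a further endothelial marker, was lower, averaging 0.398 CPM in Rho0 and 7.77 CPM in the parental line. KDR went the other way, averaging 131 CPM in Rho0 and 13.8 CPM in the parental line. CLDN5 averaged 0.147 CPM in Rho0 and 0.496 CPM in the parental line and was too low to test. Of the 13 endothelial markers tested, 4 were called higher and 6 lower. In long transcripts the Rho0 libraries differed, with replicate 4 most often the highest over all genes and replicate 1 most often the lowest. Values that rest on replicate 4 are given with and without it.

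Among the guidance genes, ROBO1 and its ligands SLIT2 and SLIT3, the class 3 semaphorins SEMA3C and SEMA3D, and the plexins PLXNA2, PLXNA3 and PLXNA4 were higher in Rho0. EFNA1, EFNA3, EFNA4, EFNB1, SEMA6B and PLXNB3 were lower. Neither family moved as a whole, since EFNA5 was higher and PLXNA1 was lower in Rho0. The calls of EFNA4 and PLXNA1 were lost with libraries scaled by size alone. Of the 65 genes, 47 passed the filter on low counts and were tested. Of these, 17 were higher and 16 lower in Rho0 (quasi-likelihood F-test of edgeR, with a threshold of 0.05 on p adjusted over 15184 genes), and 14 were not called. With libraries scaled by size alone, which put the all-gene median at 0.44 instead of 0.05, the counts were 24 higher and 6 lower. The called share was 70.2% of the tested guidance genes, against 54.4% of all genes tested, with 29% of all genes called higher and 25.4% called lower. At 1 log2 unit or more, 9 were higher and 5 lower, or 19.1% and 10.6%, against 8.76% and 5.51% of all genes. The median log2 fold change of the 47 tested genes was -0.11, against 0.05 for all genes. For the 44 guidance ligands and receptors among them it was -0.04. CPM ranges of the lines did not overlap for 35 of the 47, or 74.5%, against 50.9% of all genes. Genes that passed the filter through a single line had to differ, so these shares describe the genes that could be measured and are no test of the group.

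**Figure D1:**
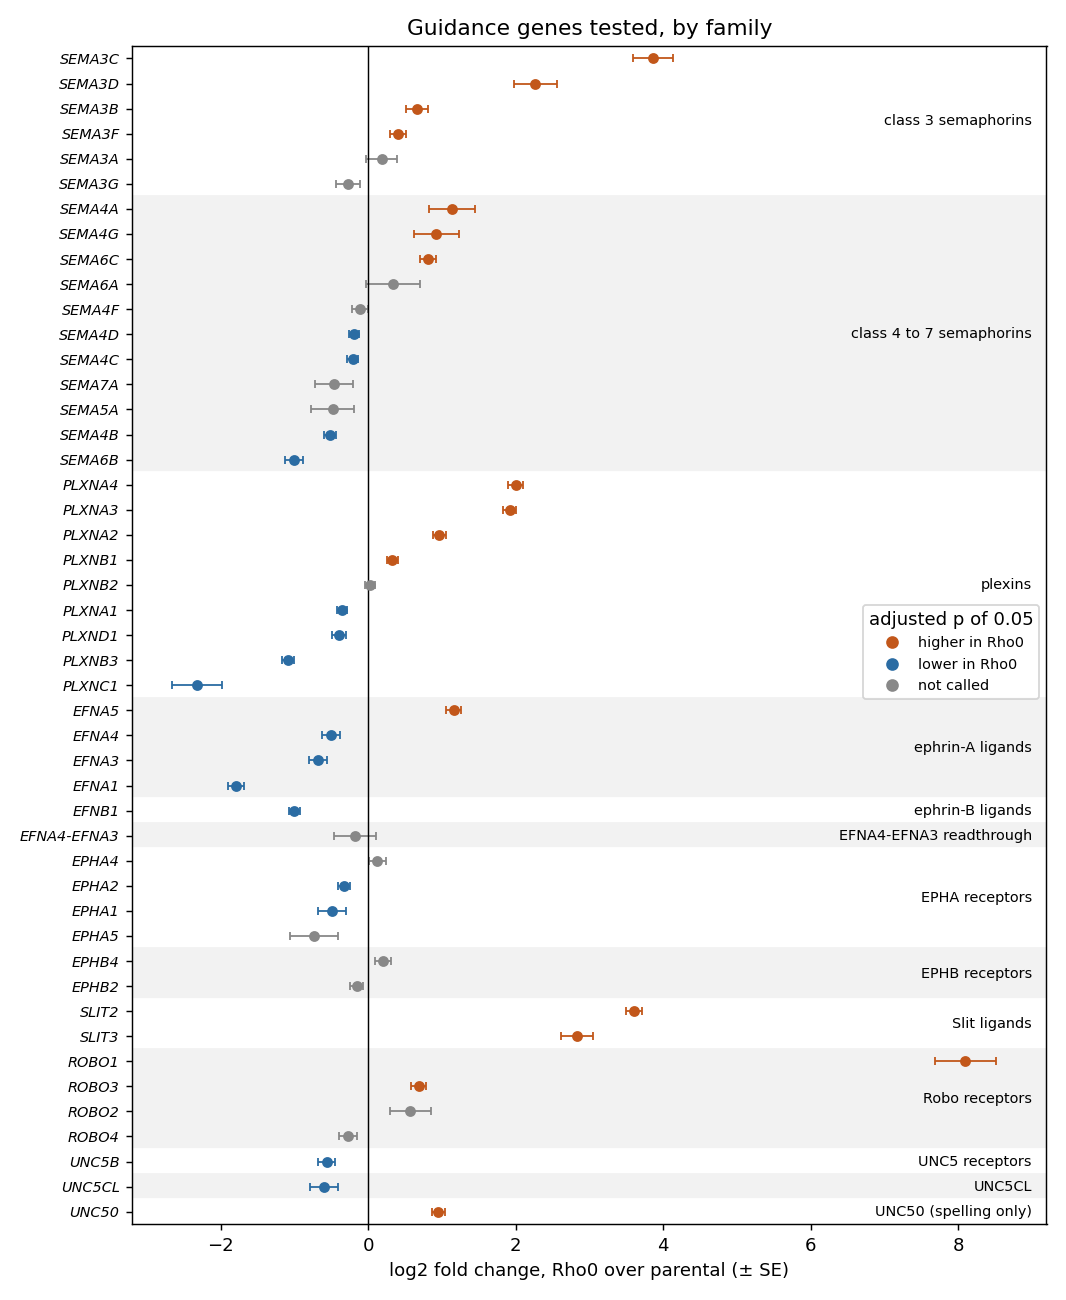
The log2 fold change of each tested guidance gene (x axis, Rho0 over parental, with its standard error) is shown by family (y axis), and colour marks whether the gene was called higher, lower or neither. ROBO1 lies farthest to the right at 8.10, the Slits at 3.60 and 2.83, and the ephrin ligands other than EFNA5 lie left of 0.

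The promoters of SLIT2 and ROBO1 are printed because they are a ligand and receptor pair that were both called higher, and that of EFNA1 because it was the ephrin that fell most. Promoter windows of 300 bases, which span an annotated start and lie mostly before it, were taken from RefSeq (GRCh38.p14) and matched 58 of the 65 genes, with 89 windows in all. The windows lie at chr4:20251655-20251954 (plus strand) for SLIT2, at chr3:79019410-79019709 and chr3:79767949-79768248 (minus strand) for the 2 starts of ROBO1, and at chr1:155127626-155127925 (plus strand) for EFNA1. Each is written 5′ to 3′ on the gene's strand, and capitals mark CpG dinucleotides. RefSeq starts need not be those of GENCODE 29, from which the gene coordinates below were taken.
SLIT2: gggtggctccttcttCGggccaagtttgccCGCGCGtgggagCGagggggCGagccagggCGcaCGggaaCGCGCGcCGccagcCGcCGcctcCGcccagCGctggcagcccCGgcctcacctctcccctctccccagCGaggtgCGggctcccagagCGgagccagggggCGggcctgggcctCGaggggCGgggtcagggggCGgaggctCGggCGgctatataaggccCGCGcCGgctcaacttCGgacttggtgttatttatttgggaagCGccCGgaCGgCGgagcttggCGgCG
ROBO1 downstream start: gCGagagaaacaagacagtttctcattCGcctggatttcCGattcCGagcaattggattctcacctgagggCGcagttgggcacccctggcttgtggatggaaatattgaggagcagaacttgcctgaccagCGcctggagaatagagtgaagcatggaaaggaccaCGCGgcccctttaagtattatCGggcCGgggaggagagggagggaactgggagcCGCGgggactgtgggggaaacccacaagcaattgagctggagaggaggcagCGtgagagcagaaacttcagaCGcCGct
ROBO1 upstream start: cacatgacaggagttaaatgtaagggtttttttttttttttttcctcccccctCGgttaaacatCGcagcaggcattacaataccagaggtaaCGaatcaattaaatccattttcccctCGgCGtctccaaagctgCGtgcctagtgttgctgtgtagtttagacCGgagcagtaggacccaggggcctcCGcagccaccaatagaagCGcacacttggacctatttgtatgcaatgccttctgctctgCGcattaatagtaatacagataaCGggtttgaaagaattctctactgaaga
EFNA1: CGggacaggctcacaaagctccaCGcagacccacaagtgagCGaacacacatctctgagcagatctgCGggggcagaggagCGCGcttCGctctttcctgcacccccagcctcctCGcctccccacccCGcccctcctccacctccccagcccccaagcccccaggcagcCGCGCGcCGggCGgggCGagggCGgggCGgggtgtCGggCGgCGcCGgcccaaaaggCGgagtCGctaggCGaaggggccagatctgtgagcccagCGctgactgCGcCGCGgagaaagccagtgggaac
The SLIT2 window holds 36 CpG dinucleotides and is 74.3% G and C. The EFNA1 window holds 28, and the ROBO1 windows hold 15 and 11, against a median of 21 over the 89 guidance windows and 14 over all 35116 windows. The guidance windows had a median of 64.7% G and C, against 58.7% over all windows. The gene tables sum over starts, so the values of ROBO1 cannot be assigned to either of its starts. The GC box, GGGCGG, was found on either strand in 16 of 17 windows of genes called lower and in 20 of 32 windows of genes called higher. These windows belong to 14 and 17 genes, so genes with several starts count more than once. By gene, every gene called lower that had a window held a GC box in at least 1. Of the genes called higher, only PLXNA4, ROBO1 and SEMA3D held none. Over windows, the remaining sets were counted in the same way. The GC box was in 30 of 40 windows of the remaining guidance genes and in 45% of all windows. Of the printed windows, SLIT2 and EFNA1 hold 5 GC boxes each and ROBO1 holds none. Other motifs were searched on both strands in the 89 windows of the group. The AP-1 motif TGANTCA was in 1.12% of them, against 7.71% of all windows. The E-box CACGTG was in 4.49% (7.26% of all), the shorter hypoxia motif ACGTG, which lies within the E-box, in 20.2% (21.4%), and the cyclic AMP response element TGACGTCA in 3.37% (1.85%). The ETS motif CCGGAAG was in 4.49% (10.3%), the TEAD motif GGAATG in 10.1% (14.0%) and the amino acid response motif TGATGNAA in 2.25% (3.62%). Windows of alternative starts of a gene can overlap, and a match or its absence says only whether those letters occur in the window.

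SLIT2, a secreted Robo ligand (chr4:20253260-20620561, GRCh38), had 71.6, 87.6, 89.2 and 96.5 CPM in Rho0 replicates 1 to 4, against 6.93, 7.48, 7.27 and 6.70 CPM in parental replicates 1 to 4. Every Rho0 library lay above every parental library, by a wide margin. The gene was 12.1-fold higher in Rho0 (log2 fold change 3.60, with an SE of 0.11 and an adjusted p by edgeR of 3e-09). SLIT3, a further Slit of the same kind, averaged 2.60 ± 0.232 CPM in Rho0 and 0.363 ± 0.106 CPM in the parental line (SD, n = 4 each; log2 fold change 2.83, with an SE of 0.22 and an adjusted p by edgeR of 1.7e-06). SLIT1, the third member, had 47 counts in the Rho0 libraries together and 24 in the parental libraries and was not tested. Summed over the 3 Slits, the level was 74.8 to 99.6 CPM in Rho0 libraries and 7.49 to 8.11 CPM in parental libraries, nearly all of it from SLIT2.

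ROBO1, a Slit receptor (chr3:78597240-79767815), was close to silent in the parental line. It had 21.9, 29.2, 34.4 and 44.5 CPM in Rho0 replicates 1 to 4, against 0.0459, 0, 0.224 and 0.239 CPM in parental replicates 1 to 4. The parental values rest on 10.5 estimated counts over the 4 libraries, while every Rho0 library had at least 387 counts. The log2 fold change was 8.10 (SE 0.42, adjusted p by edgeR = 8.1e-08), and 7.88 without Rho0 replicate 4, which had the highest ROBO1 level. On the authors' deposited log2 table, whose lowest value is 0, it was 4.89.

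ROBO3, a divergent Robo best known from commissural axons, rose 1.61-fold, to 91.9 ± 12.9 CPM in Rho0, against 57.2 ± 2.62 CPM in the parental line (SD, n = 4 each; log2 fold change 0.68, with an SE of 0.10 and an adjusted p by edgeR of 2.4e-04). Its neighbour ROBO4, the endothelial Robo, had the highest level per kb of the 4 in both lines. It had 480, 439, 399 and 320 CPM in Rho0 replicates 1 to 4, against 462, 470, 576 and 473 CPM in parental replicates 1 to 4. The lines overlapped, and ROBO4 was not called (log2 fold change -0.27, with an SE of 0.12 and an adjusted p by edgeR of 0.085). It was -0.18 and not called without Rho0 replicate 4, and was called lower at -0.38 without Rho0 replicate 1, at -0.31 with DESeq2 and at -0.23 after correcting libraries for length and GC of the transcripts. With libraries scaled by size alone it was at 0.12 and not called. ROBO2, which lies next to ROBO1 on chromosome 3, averaged 0.486 ± 0.0490 CPM in Rho0 and 0.318 ± 0.0924 CPM in the parental line (SD, n = 4 each) and was not called (adjusted p by edgeR = 0.13). Per kb of transcript, the mean level of ROBO1 in Rho0 was 5.81 CPM, below ROBO3 at 20.1 and ROBO4 at 86.9, and in the parental line the 3 levels were 0.0227, 12.5 and 105 CPM per kb.

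The UNC5 family was weakly expressed apart from UNC5B, the endothelial netrin receptor. UNC5B had 7.61, 7.99, 6.05 and 6.31 CPM in Rho0 replicates 1 to 4, against 9.64, 10.6, 11.4 and 9.38 CPM in parental replicates 1 to 4. All Rho0 libraries lay below all parental libraries (log2 fold change -0.56, with an SE of 0.12 and an adjusted p by edgeR of 0.0023), but the call was lost with libraries scaled by size alone (-0.17). UNC5A had 9 counts in the Rho0 libraries together and 34 in the parental libraries, UNC5C had 45 and 16, and UNC5D had 50 and 1, and none of the 3 was tested. The ratio of UNC5D in Rho0 to parental was 37.7, with an exact 95% counting interval of 6.46 to 1517. The UNC5D gene overlaps the processed pseudogene LSM12P1, which had more counts, on the opposite strand. UNC5CL was called lower (log2 fold change -0.60, with an SE of 0.19 and an adjusted p by edgeR of 0.021), with 1.01 ± 0.165 CPM in Rho0 and 1.55 ± 0.192 CPM in the parental line (SD, n = 4 each), and it lost the call in 5 of 17 alternatives, among them the fits without parental replicate 1 or 2. It overlaps OARD1, which had more counts, on the same strand, so its reads are uncertain. UNC50, a membrane protein of the Golgi that is no guidance receptor, rose 1.93-fold (log2 fold change 0.95, with an SE of 0.09 and an adjusted p by edgeR of 7.5e-06).

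**Figure D2:**
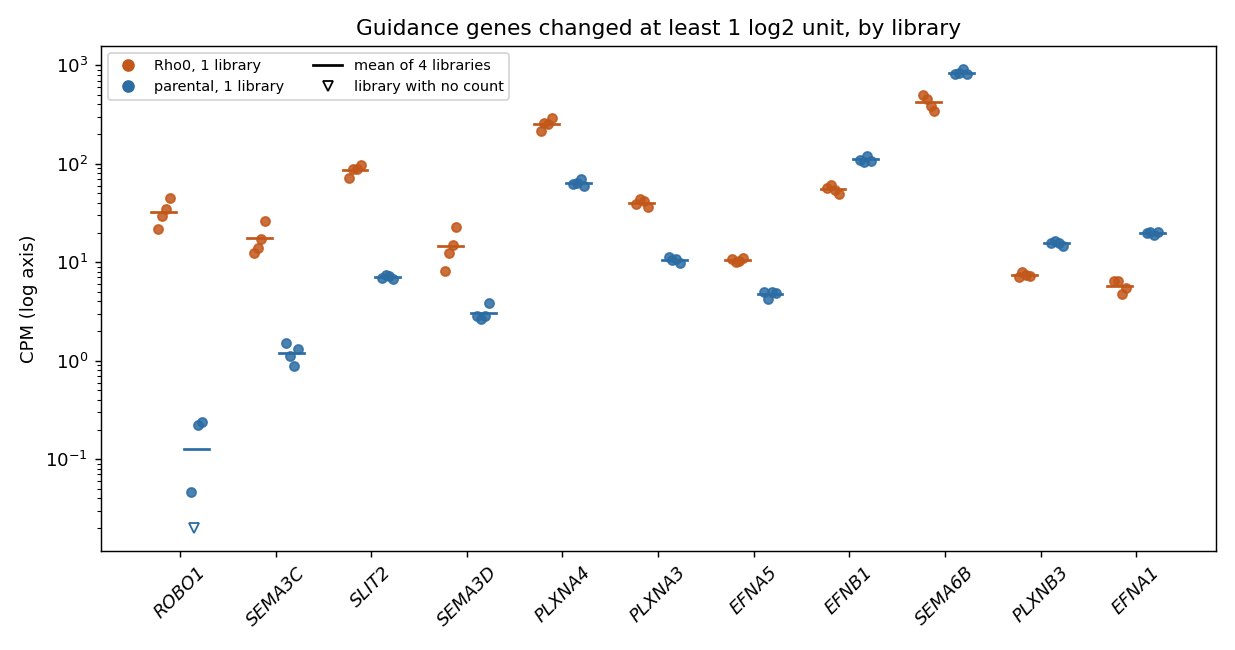
CPM of each library on a log axis (y) for the 11 guidance genes that were called, changed by at least 1 log2 unit and averaged at least 5 CPM in the higher line (x). Bars mark means of 4 libraries, and the open triangle marks parental replicate 2, in which ROBO1 had no count and which has no place on a log axis. In none of the 11 genes do the lines overlap.

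Class 3 semaphorins, the secreted members that act through neuropilins, had 4 of 6 tested genes higher and none lower, with a median log2 fold change of 0.53. Of all genes tested, 29% were called higher and 25.4% lower. SEMA3C (chr7:80742538-80922359) had 12.4, 14.0, 17.4 and 25.9 CPM in Rho0 replicates 1 to 4, against 1.499, 1.11, 0.876 and 1.30 CPM in parental replicates 1 to 4. It was 14.5-fold higher in Rho0 (log2 fold change 3.86, with an SE of 0.27 and an adjusted p by edgeR of 8.5e-07). SEMA3D (chr7:84995553-85186855) had 8.17, 12.3, 14.8 and 22.7 CPM in Rho0 replicates 1 to 4, against 2.85, 2.63, 2.84 and 3.83 CPM in parental replicates 1 to 4. Its lines did not overlap either, although Rho0 replicate 4 was 2.77 times replicate 1 (log2 fold change 2.27, with an SE of 0.29 and an adjusted p by edgeR of 7.4e-05). Without that replicate SEMA3C and SEMA3D remained called, at 3.58 and 1.93.

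SEMA3F, a neuropilin-2 ligand, had by far the highest level per kb of the class 3 semaphorins. It had 305, 297, 283 and 217 CPM in Rho0 replicates 1 to 4, against 201, 201, 234 and 197 CPM in parental replicates 1 to 4. Replicate 4 was the only Rho0 library below the highest parental library, and SEMA3F was called higher by a small amount (log2 fold change 0.40, with an SE of 0.11 and an adjusted p by edgeR of 0.0095). SEMA3B, which lies beside it on chromosome 3, rose 1.58-fold (log2 fold change 0.66, with an SE of 0.15 and an adjusted p by edgeR of 0.0033). SEMA3A, the founding collapse factor, averaged 21.6 ± 7.64 CPM in Rho0 and 19.1 ± 1.65 CPM in the parental line (SD, n = 4 each) and was not called. Its log2 fold change was 0.18, but -0.10 without Rho0 replicate 4. SEMA3G averaged 2.49 ± 0.297 CPM in Rho0 and 2.98 ± 0.455 CPM in the parental line (SD, n = 4 each) and was not called. SEMA3E, a plexin-D1 ligand, was too low to test, with 69 counts in Rho0 and 2 in the parental line, a ratio of 26.0 with an exact 95% counting interval of 6.93 to 219.

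SEMA3A, SEMA3C, SEMA3D and SEMA3E lie within 4.44 Mb of chromosome 7 (chr7:80742538-85186855). Of the 3 tested there, 2 were called higher. The only other tested gene in the interval, the calcium channel subunit gene CACNA2D1, was also higher (log2 fold change 3.30, adjusted p by edgeR = 2.8e-07). It was looked up after the semaphorin values were seen. SEMA3B and SEMA3F lie within 0.123 Mb of chromosome 3 (chr3:50155045-50277546), and both were called higher, whereas GNAI2 between them was lower (log2 fold change -0.80).

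The membrane and GPI-anchored semaphorins of classes 4 to 7 changed in both directions, with 3 of 11 tested genes higher, 4 lower and a median of -0.19. The shares over all genes were 29% higher and 25.4% lower. SEMA6B, a transmembrane ligand of A-type plexins, had the highest level per kb of any semaphorin in both lines. It had 503, 452, 387 and 343 CPM in Rho0 replicates 1 to 4, against 812, 840, 919 and 807 CPM in parental replicates 1 to 4. The lines were far apart, and SEMA6B was lower in Rho0 (log2 fold change -1.0, with an SE of 0.12 and an adjusted p by edgeR of 4.3e-05). SEMA6C, of the same class, went the other way and rose 1.75-fold, averaging 24.3 ± 3.50 CPM in Rho0 and 13.9 ± 0.953 CPM in the parental line (SD, n = 4 each; log2 fold change 0.81, with an SE of 0.11 and an adjusted p by edgeR of 1.3e-04). SEMA4A and SEMA4G, both low, were called higher at 1.14 and 0.92. SEMA4G overlaps MRPL43 on the opposite strand, and its call was lost without Rho0 replicate 3 or parental replicate 4.

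SEMA4B fell to 100.3 ± 9.04 CPM in Rho0, against 144 ± 9.93 CPM in the parental line (SD, n = 4 each; log2 fold change -0.52, with an SE of 0.08 and an adjusted p by edgeR of 3.9e-04). SEMA4D, a ligand of plexin-B1, and SEMA4C were called lower at -0.19 and -0.21 (adjusted p by edgeR = 0.043 and 0.028). With libraries scaled by size alone, SEMA4B was at -0.13 and SEMA4C and SEMA4D were at 0.18 and 0.20, and none of the 3 was called. SEMA4C lost its call in 7 of 18 alternatives, among them the fits without Rho0 replicate 3, parental replicate 2 or parental replicate 4. SEMA4D lost it in 9 of 18, among them the fits without Rho0 replicate 3 or any 1 parental replicate. SEMA4F, SEMA5A, SEMA6A and SEMA7A were not called, and SEMA5B and SEMA6D had at most 4.19 estimated counts over the libraries of either line. Summed over class 4 to 7, the level was 554 to 743 CPM in Rho0 libraries and 1076 to 1212 CPM in parental libraries, and SEMA6B held most of both sums.

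All 9 plexins were tested, and 4 rose, 4 fell and 1 did not pass, against 29% of all genes called higher and 25.4% called lower. PLXNA4 (chr7:132123332-132648688), a co-receptor of class 3 semaphorins and receptor of class 6, had 216, 261, 254 and 294 CPM in Rho0 replicates 1 to 4, against 62.6, 64.3, 69.7 and 59.1 CPM in parental replicates 1 to 4. It was 4.01-fold higher (log2 fold change 2.00, with an SE of 0.10 and an adjusted p by edgeR of 6.6e-08). PLXNA3 had 39.0, 43.5, 41.6 and 36.5 CPM in Rho0 replicates 1 to 4, against 11.3, 10.5, 10.7 and 9.80 CPM in parental replicates 1 to 4. It was 3.78-fold higher (log2 fold change 1.92, with an SE of 0.09 and an adjusted p by edgeR of 2.9e-08). PLXNA2, a semaphorin-6 receptor, reached 577 ± 43.3 CPM in Rho0, against 296 ± 27.0 CPM in the parental line (SD, n = 4 each; log2 fold change 0.97, with an SE of 0.09 and an adjusted p by edgeR of 5.8e-06). PLXNA1 differed from the other A-type plexins and was called lower (log2 fold change -0.35, with an SE of 0.07 and an adjusted p by edgeR of 0.0014), but with libraries scaled by size alone it was at 0.04 and not called.

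PLXND1, the main endothelial plexin and receptor of SEMA3E, had the highest level per kb of the plexins in both lines. It had 1033, 1071, 954 and 881 CPM in Rho0 replicates 1 to 4, against 1242, 1297, 1417 and 1215 CPM in parental replicates 1 to 4. The lines did not overlap, and PLXND1 was called lower (log2 fold change -0.39, with an SE of 0.10 and an adjusted p by edgeR of 0.0061), but the call was lost with libraries scaled by size alone. Of the B-type plexins, PLXNB1, the SEMA4D receptor, rose by a small amount (log2 fold change 0.33, with an SE of 0.08 and an adjusted p by edgeR of 0.0043). PLXNB2 averaged 252 ± 13.4 CPM in Rho0 and 248 ± 8.70 CPM in the parental line (SD, n = 4 each) and was not called (adjusted p by edgeR = 0.79). PLXNB3 had 7.14, 7.89, 7.43 and 7.18 CPM in Rho0 replicates 1 to 4, against 15.8, 16.5, 15.8 and 14.8 CPM in parental replicates 1 to 4. It was lower in every Rho0 library (log2 fold change -1.09, with an SE of 0.08 and an adjusted p by edgeR of 1.7e-06). PLXNC1, the SEMA7A receptor, was low in both lines and fell to 0.476 ± 0.227 CPM in Rho0, against 2.35 ± 0.507 CPM in the parental line (SD, n = 4 each; log2 fold change -2.32, with an SE of 0.34 and an adjusted p by edgeR of 2.2e-04), and was at -1.20 on the deposited log2 table. Its gene overlaps CEP83, which had more counts, on the opposite strand. PLXNB3 overlaps SRPK3 on the same strand and PLXNA3 overlaps LAGE3 on the opposite strand, both neighbours with fewer counts.

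Ephrin-A ligands, which are GPI-anchored, had 3 of 4 tested members lower and 1 higher, against 25.4% and 29% of all genes. EFNA1, an endothelial ligand of EPHA2 (chr1:155127460-155134857), had 6.45, 6.40, 4.72 and 5.43 CPM in Rho0 replicates 1 to 4, against 19.8, 20.1, 19.1 and 20.5 CPM in parental replicates 1 to 4. The parental libraries were close together and all Rho0 libraries lay far below them (log2 fold change -1.79, with an SE of 0.11 and an adjusted p by edgeR of 3e-07). EFNA3 and EFNA4, its neighbours within 0.0711 Mb of chromosome 1 (chr1:155063731-155134857), were also called lower at -0.68 and -0.50 (adjusted p by edgeR = 6.9e-04 and 0.0045). Both overlap, on the same strand, the readthrough gene EFNA4-EFNA3, which was at 1.08 ± 0.0764 CPM in Rho0 and 1.24 ± 0.573 CPM in the parental line (SD, n = 4 each), so their split of reads is uncertain. The call of EFNA4 was lost with libraries scaled by size alone (-0.11).

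EFNA5 was the ephrin-A that rose. It had 10.9, 10.1, 10.3 and 10.9 CPM in Rho0 replicates 1 to 4, against 4.97, 4.20, 4.95 and 4.84 CPM in parental replicates 1 to 4. The libraries of each line were tightly grouped, and EFNA5 was 2.23-fold higher in Rho0 (log2 fold change 1.16, with an SE of 0.10 and an adjusted p by edgeR of 3.2e-06). EFNA2 had 28 counts over the Rho0 libraries and none in the parental line, at least 1.75-fold higher as a bound against 3 counts in each parental library.

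EFNB1 was the only ephrin-B with a measurable level. It had 56.8, 60.3, 54.5 and 49.8 CPM in Rho0 replicates 1 to 4, against 108, 105, 121 and 108 CPM in parental replicates 1 to 4. The lines did not overlap, and EFNB1 was lower in Rho0 (log2 fold change -1.0, with an SE of 0.08 and an adjusted p by edgeR of 2.1e-06). EFNB2, the arterial ephrin, had 11 counts over the Rho0 libraries and 1 over the parental libraries, and EFNB3 had 12 and 4, so neither was tested.

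Of the 14 Eph receptors 6 were tested, of which 2 were called lower, none higher and none at 1 log2 unit, against 54.4% of all genes called in either direction. EPHA2, the main endothelial and epithelial EphA receptor, had 336, 333, 319 and 277 CPM in Rho0 replicates 1 to 4, against 377, 374, 439 and 401 CPM in parental replicates 1 to 4. It was called lower (log2 fold change -0.33, with an SE of 0.08 and an adjusted p by edgeR of 0.0068), but with libraries scaled by size alone it was at 0.06 and not called. EPHA1 was called lower at -0.49 (adjusted p by edgeR = 0.046), a call that was lost in 12 of 17 alternatives, and its gene overlaps ZYX, an abundant gene on the opposite strand. EPHA4 averaged 32.5 ± 5.69 CPM in Rho0 and 29.9 ± 1.14 CPM in the parental line (SD, n = 4 each) and was not called. Its log2 fold change of 0.12 was -0.01 without Rho0 replicate 4. EPHA5 averaged 0.912 ± 0.495 CPM in Rho0 and 1.59 ± 0.126 CPM in the parental line (SD, n = 4 each; adjusted p by edgeR = 0.074), and it was called in 6 of 17 alternatives, at -0.94 without Rho0 replicate 4 and at -0.99 without Rho0 replicate 3.

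EPHB4, the venous endothelial Eph receptor, had 507, 453, 411 and 359 CPM in Rho0 replicates 1 to 4, against 359, 378, 409 and 360 CPM in parental replicates 1 to 4. Rho0 replicate 4 lay among the parental libraries and the other Rho0 libraries lay above them. EPHB4 was not called over all libraries (log2 fold change 0.20, with an SE of 0.10 and an adjusted p by edgeR of 0.12) and was called without Rho0 replicate 4 (0.27, adjusted p by edgeR = 0.014), after correcting libraries for length and GC of the transcripts (0.26) and with libraries scaled by size alone (0.59). Without Rho0 replicate 1, its highest library, it was at 0.091 and not called. EPHB2 averaged 188 ± 12.4 CPM in Rho0 and 209.9 ± 20.3 CPM in the parental line (SD, n = 4 each) and was not called (adjusted p by edgeR = 0.14). EPHB6, a kinase-dead member, had no count in Rho0 and 35.6 estimated counts in the parental line, at least 3.25-fold lower as a bound against 3 counts in each Rho0 library. EPHA3 and EPHA7 had no count in Rho0 and 3 and 4 in the parental line, EPHA8 had 2 in Rho0 and none in the parental line, and EPHA6 had none in either. EPHA10, EPHB1 and EPHB3 had 15.6, 35 and 42.0 estimated counts in Rho0 and 6.23, 8 and 23.0 in the parental line, and were not tested.

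**Figure D3:**
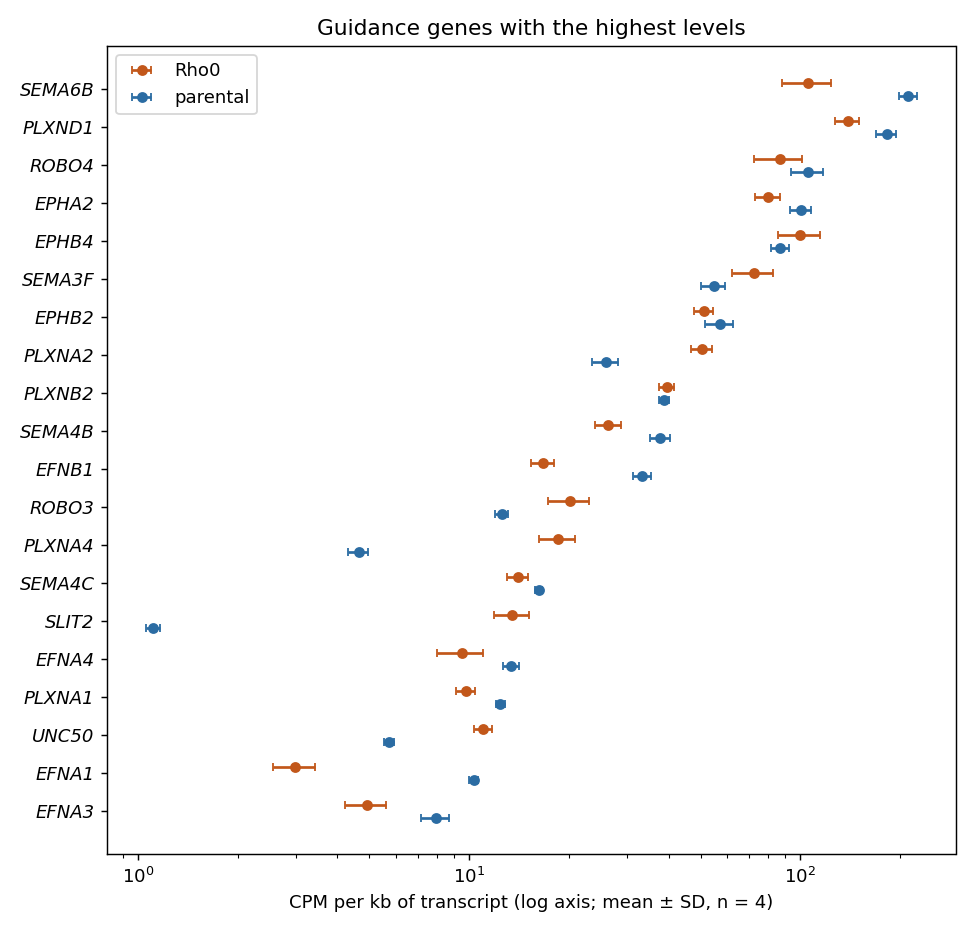
Mean CPM per kb of transcript (x, log axis, with the SD over 4 libraries) for the 20 tested genes of the group with the highest level in either line (y), with Rho0 above parental in each row. SEMA6B and PLXND1 lead in the parental line, and SLIT2 and PLXNA4 show the widest gaps among the genes plotted.

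Ranked by CPM per kb of transcript, the genes with the highest levels in Rho0 were PLXND1 at 139 ± 11.9, SEMA6B at 106 ± 17.7, EPHB4 at 99.95 ± 14.5, ROBO4 at 86.9 ± 14.5, EPHA2 at 79.8 ± 6.85 and SEMA3F at 72.5 ± 10.5 (SD, n = 4). PLXND1 stood above the others, and from SEMA6B down each level lay within the SD of its neighbour. In the parental line the order was SEMA6B at 212 ± 13, PLXND1 at 182 ± 12.6, ROBO4 at 105 ± 11.5, EPHA2 at 100.4 ± 7.58 and EPHB4 at 87.0 ± 5.36, of which ROBO4 and EPHA2 lay within their SDs of each other. Lengths are those of the principal GENCODE 29 transcript, which need not be the one these cells use.

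Genes that act with these cues were counted from a list of 76 co-receptors, netrins and intracellular transducers. Of 59 tested, 27 (45.8%) were higher and 13 (22.0%) lower, against 29% and 25.4% of all genes, with a median of 0.22, against 0.05. With libraries scaled by size alone, 42 were higher and 3 lower. NRP1, the neuropilin of SEMA3A, averaged 338 ± 52.6 CPM in Rho0 and 127 ± 4.52 CPM in the parental line (SD, n = 4 each; log2 fold change 1.41, with an SE of 0.10 and an adjusted p by edgeR of 1.3e-06). NRP2, the neuropilin of SEMA3F, averaged 173 ± 11.67 CPM in Rho0 and 219 ± 11.4 CPM in the parental line (SD, n = 4 each; log2 fold change -0.34, with an SE of 0.07 and an adjusted p by edgeR of 0.0023), and it was at 0.06 and not called with libraries scaled by size alone. The 3 largest rises among members with at least 5 CPM were those of DPYSL4, of the collapsin response mediators (log2 fold change 2.15), NTN4, a netrin of basement membranes (1.84), and FLRT2, a UNC5-binding adhesion protein (1.65). The 3 largest falls were those of FES, a tyrosine kinase linked to semaphorin signalling (-0.99), ARHGEF15, an endothelial Eph-linked exchange factor (-0.92), and VASP, an actin regulator (-0.50), the last not called with libraries scaled by size alone. By part, 5 of 11 tested co-receptors and related cues rose and 2 fell, 8 of 18 semaphorin and plexin transducers rose and 3 fell, 5 of 12 ephrin and Eph transducers rose and 3 fell, and 6 of 15 Slit, Robo and netrin transducers rose and 5 fell. The sheddases ADAM10 and ADAM17 and the Slit-binding proteoglycan GPC1 were all 3 higher.

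Markers of other cell types were read beside these values. Over all genes tested, 29% were called higher and 25.4% lower. Of 8 neuronal and glial markers, 3 of 6 tested were higher and 1 lower, with a summed level of 244 to 333 CPM in Rho0 libraries and 132 to 155 CPM in parental libraries. TUBB3 held most of both sums, at a mean of 269 CPM in Rho0 and 131 CPM in the parental line. SNAP25 had 2 counts over the Rho0 libraries and none in the parental line. Of 8 fibroblast and mural markers, 2 of 6 tested were higher and 2 lower, and LUM was at 0 in the parental line. The 8 summed to 110 to 166 CPM in Rho0 and 254 to 282 CPM in the parental line. RGS5 held most of both sums, at a mean of 104 CPM in Rho0 and 256 CPM in the parental line. ACTA2 and DCN were the 2 higher ones (log2 fold change 1.82 and 1.22), and RGS5 and PDGFRB the 2 lower ones (-1.30 and -0.78). Of 10 epithelial markers, 1 of 7 tested was higher and 4 lower, with sums of 1298 to 2083 CPM in Rho0 and 2614 to 2886 CPM in the parental line. Of 14 endothelial markers, 4 of 13 tested were higher and 6 lower, with sums of 6997 to 7966 CPM in Rho0 and 6892 to 7739 CPM in the parental line. Of 6 blood cell markers, both that were tested were higher, with sums of 5.56 to 6.73 CPM in Rho0 and 1.84 to 2.60 CPM in the parental line, and CD3E was at 0 in both lines. LYZ held most of both sums, at a mean of 5.10 CPM in Rho0 and 1.40 CPM in the parental line. The part of these markers in the guidance gene values was not tested.

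**Figure D4:**
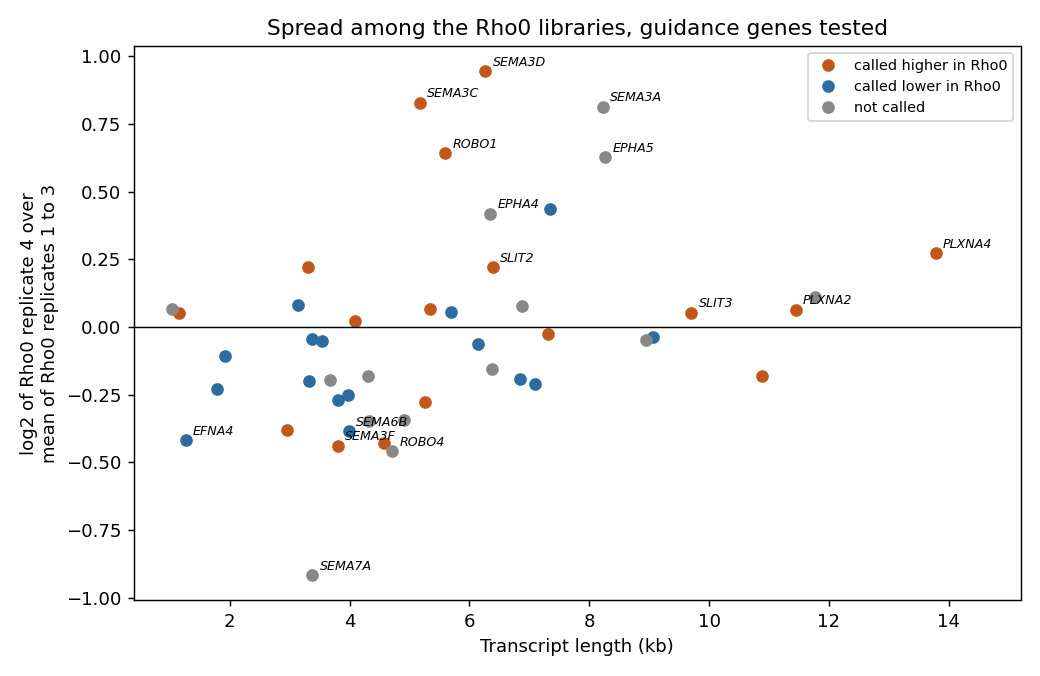
For each tested guidance gene, the log2 ratio of Rho0 replicate 4 to the mean of Rho0 replicates 1 to 3 (y) is plotted against transcript length in kb (x), with colour for the call between the lines. SEMA3D lies highest, at a ratio of 1.93, and SEMA7A lowest, at a ratio of 0.530.

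The Rho0 libraries differed among themselves in these genes, and transcript length moved with the difference. The tested guidance genes have a median transcript of 5174 bases, against 3034.5 bases for all genes tested. Rho0 replicate 4 was the highest Rho0 library for 7 of the 23 guidance genes with transcripts above that median and for 1 of the other 24. Over all genes tested, it was the highest for 65.4% of those above the same length and for 32.7% of those at or below it. Rho0 replicate 1 was the lowest Rho0 library for 13 of the 23 longer guidance genes and for 2 of the other 24. Over all genes tested, replicate 1 was the lowest for 63.4% of the longer and 27.5% of the shorter. The median log2 ratio of replicate 4 to the other Rho0 libraries was 0.06 for the longer and -0.22 for the shorter guidance genes, against 0.26 and -0.05 for all genes. After each library was corrected for transcript length and GC content, a step added after the data were seen, ROBO1, SLIT2, SEMA3C, SEMA3D and PLXNA4 remained called at 7.97, 3.38, 3.54, 1.80 and 1.77, and SEMA3A was called lower at -0.28. The cause of the length dependence was not tested.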

How the data were processed

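The authors deposited a table of estimated counts for 38010 Ensembl gene IDs, not normalized, and a table of log2 values for 12885 genes, scaled by the authors in a way not given in the sources used here. Per the submitters' processing notes, the tools were kallisto, limma and edgeR and the build was GRCh38. RNA was enriched for poly-A tails and libraries were strand-specific, per the labels' protocols. No source used here gives the annotation release or says whether counting used strand. Depth was 11721708 to 37203507 counts.

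Gene IDs were matched to symbols and, in GENCODE 29 (GRCh38), to coordinates and principal transcripts. Rounded counts went into edgeR 4.0.16 under R 4.3.3. Libraries were scaled by TMM, filterByExpr kept genes at a minimum of 10 counts, line was the only model term, and p from the quasi-likelihood F-test was adjusted by Benjamini and Hochberg over 15184 genes. The biological coefficient of variation was 13.7%. The p-values rest on the spread among cultures of 1 line each. SE is the log2 fold change divided by the square root of F. Bounds and intervals cover counting error only. On simulated counts of this comparison (14889 genes tested, 50 changed at each size), calls recovered 58% of 1.5-fold changes, 86% of 2-fold and 100% of 4- and 8-fold ones, and 12 of 184 calls were false. The simulation changed 200 genes, as many up as down, whereas 54.4% of all genes tested were called between the lines. Its rates therefore need not hold for the real data. Alternatives used DESeq2 1.42.0 and limma 3.58.1. No pair of libraries agreed within sampling noise (lowest chi-square per degree of freedom 4.21). Figures were drawn with matplotlib 3.10.9.

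The guidance genes and lists were chosen with earlier results of these data known. Library values are given for called genes with at least 5 CPM in the higher line and a change of at least 1 log2 unit, and for the most abundant gene of each family. Of the 76 co-acting genes, NRP1, NRP2 and the 3 largest called changes each way with at least 5 CPM are named.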

Additional observations from a re-analysis of the deposited data

Results flagged for a closer look

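A single library stood apart from the other 3 of its line, by Dixon's test at the 95% level, in 7 of 110 groups of 4 libraries examined. Chance flags about 1 in 20 such groups. Parental replicate 3 was the highest parental library in 4 of them. There EPHB2 had 240.3 CPM (the others 198 to 202), ROBO4 576 CPM (462 to 473), SEMA3F 234 CPM (197 to 201) and SEMA4B 159 CPM (138 to 141). EPHB2 was also lowest in Rho0 replicate 4, at 169.8 CPM, against 192 to 197 in the other Rho0 libraries. Parental replicate 2 was lowest for EFNA5, at 4.20 CPM (4.84 to 4.97), and for NRP1, at 120.4 CPM (129 to 129.8). Without parental replicate 3, SEMA3F and SEMA4B kept their calls, and EPHB2 and ROBO4 were not called.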

How the results depend on the processing

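Of the 33 called guidance genes, 22 kept direction and call in every alternative that tested them (16 to 18 of the 18), and 11 lost the call in at least 1, while 10 of the 14 genes not called were called in at least 1. With mitochondrially encoded genes left out of the totals and TMM kept, 17 guidance genes were higher and 16 lower, and all 33 calls were shared. Scaling by library size alone moved the counts most. It gave 8583 higher and 1540 lower genes in all, 6 lower guidance genes, and 42 higher and 3 lower genes of the 76 co-acting ones. It also turned EFNA4-EFNA3 to 0.23, EPHA2 to 0.061, EPHB2 to 0.24, NRP2 to 0.057, PLXNA1 to 0.043, ROBO4 to 0.12, SEMA3G to 0.12, SEMA4C to 0.18, SEMA4D to 0.20 and SEMA4F to 0.29, and 23 of the 33 calls kept their direction and call. The length and GC correction, chosen after seeing the data, turned EFNA4-EFNA3 to 0.023, EPHA4 to -0.10 and SEMA3A to -0.28. PLXNB2 turned to -0.0107 with the DESeq2 test and to -0.0102 with DESeq2 size factors. Over fits that left out 1 library, EFNA4-EFNA3 ranged from -0.35 to 0.15 (positive without parental replicate 3), EPHA4 from -0.015 to 0.18 and SEMA3A from -0.10 to 0.32 (negative without Rho0 replicate 4), and PLXNB2 from -0.016 to 0.053 (negative without Rho0 replicate 1, 2 or 3). With each library left out in turn, 16 to 18 guidance genes were higher and 12 to 17 lower, against 3774 to 4591 and 3415 to 4391 of all genes and 23 to 28 and 11 to 14 of the co-acting genes. The cause of these changes was not tested.

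Replicate numbers are shared between the lines as numbers only. Deviations from the group means correlated at -0.13, 0.04, 0.00 and 0.16 for numbers 1 to 4, so they were not taken as pairs. With the replicate block, 17 guidance genes were higher and 13 lower, 29 of the 33 calls were shared, and 4215 of all genes were higher and 3802 lower. Only replicate 4 of the Rho0 libraries correlated best with its own number. Depth limits the 18 genes not tested, whose highest group mean was 0.546 CPM.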
